A study of Mus musculus with 6 samples.

Results

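Hepatic stellate cells wrap the sinusoids of the liver and store vitamin A, and they are also known for a set of secreted proteins and surface molecules. The set described here holds 10 genes chosen by symbol: the genes of the secreted signalling proteins Hgf, Rspo3, Angptl6 and Reln, the receptor gene Ngfr, the collectin genes Colec10 and Colec11, the matrix protein genes Ecm1 and Adamtsl2, and Cygb. All 10 were found among the 24940 genes of the table, and all 10 passed the filter on low counts (11286 genes passed in all). Cygb encodes a globin of the cytoplasm, so the description as secreted factors and surface markers does not hold for it.

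Primary stellate cells were isolated from female wild-type C57BL/6JBomTac mice. After 2 days in culture, the 3 samples of the OCA+VIP group received 10 µM obeticholic acid (OCA), an FXR agonist derived from a bile acid, and the 3 samples of the DMSO+VIP group received an equal volume of the vehicle DMSO (1:1000). Vasoactive intestinal peptide (VIP), a peptide that signals through receptors coupled to cAMP, was given to all 6 samples at 500 nM after 3 h, for a further 3 h. The comparison is therefore of OCA with vehicle in cells that all had VIP, and cells without VIP were not analysed here. Whether the 3 libraries of 1 group are separate animals or cultures is not in the labels; p-values cover only how far these samples spread, and that spread may be technical.

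In the liver, HGF made by stellate cells acts on hepatocytes through the receptor tyrosine kinase MET. R-spondin 3 binds LGR receptors and removes the ubiquitin ligases ZNRF3 and RNF43 from the cell surface, which keeps Wnt receptors in place. The collectins CL-L1 (Colec10) and CL-K1 (Colec11) are soluble lectins that bind sugars and start the lectin pathway of complement with MASP proteases, while ECM1 keeps latent TGF-beta in the matrix inactive and ADAMTSL2 binds fibrillin microfibrils. Reelin is a large secreted glycoprotein that marks stellate cells among liver cells, p75NTR (Ngfr) is the receptor shared by all neurotrophins, and cytoglobin is a globin that handles oxygen and nitric oxide.

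With OCA before VIP, Hgf RNA was 4.32-fold lower, while RNA of both collectins, Ngfr and Ecm1 was higher, Colec11 by 4.49-fold, Ngfr by 2.22-fold and Ecm1 by 1.83-fold. Rspo3, Reln, Angptl6, Adamtsl2 and Cygb did not pass the test. In counts, 4 of the 10 genes rose, 1 fell and 5 did not pass (adjusted p under 0.05 by edgeR's quasi-likelihood test across all tested genes). Colec10 entered the test through its OCA+VIP counts alone, so its place among the 4 is conditioned on the group where it is high. Of all 11286 genes tested, 5.72% rose and 6.04% fell. The 10 genes were chosen with earlier results of these data known, so the shares of all genes are given for scale only. The 3 values of each group did not overlap for 6 of the 10, with OCA+VIP above in 4 and below in 2; among all tested genes these shares were 16.8% and 13.9%, or 30.6% in either direction. The median log2 fold change was 0.38 over the 10 genes and 0.0010 over all tested genes. The number that rose was 2 without DMSO+VIP library 2 and 2 without OCA+VIP library 1, while Hgf fell without any 1 of the 6 libraries.

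**Figure D1:**
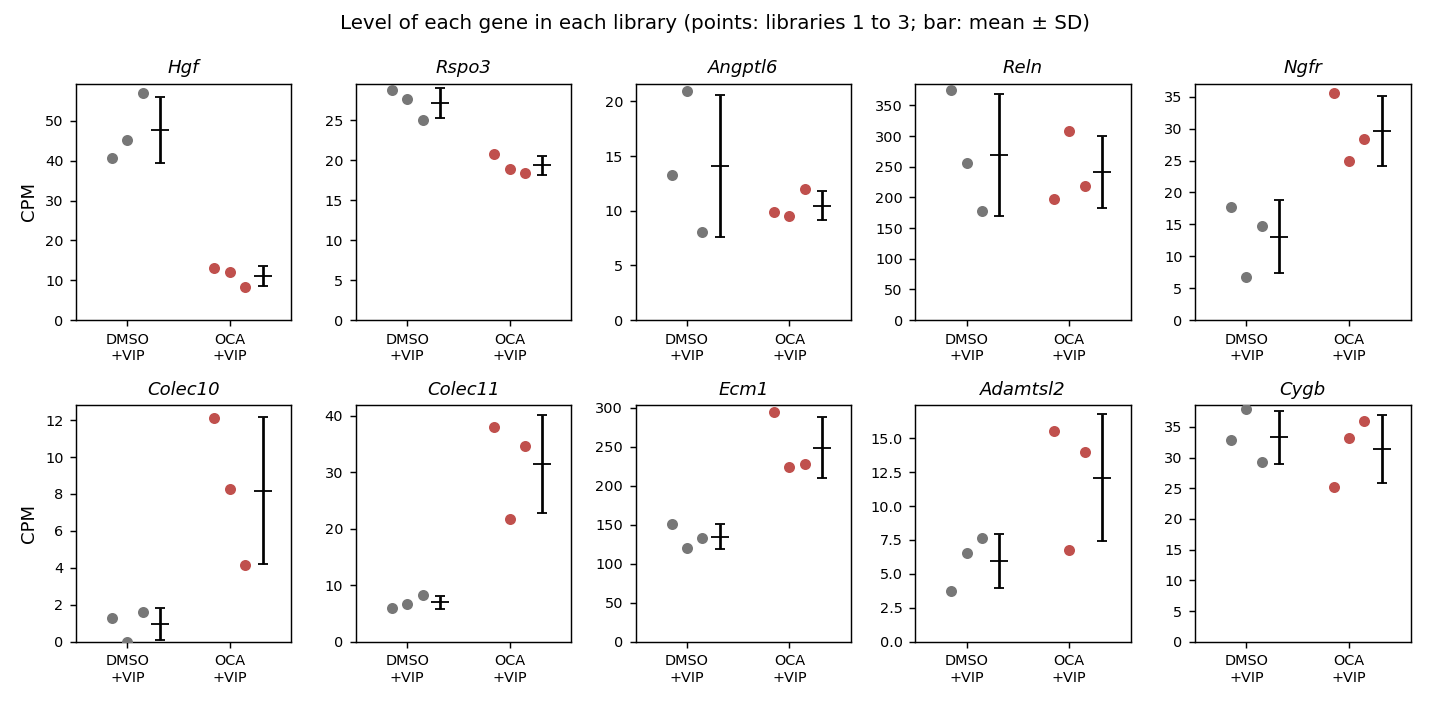
CPM (counts scaled to the same library total, y axis, linear from 0, with its own scale in each panel) of the 10 genes in the 3 DMSO+VIP libraries (grey) and the 3 OCA+VIP libraries (red), with the mean ± SD of each group as a black bar. Every OCA+VIP point lies below every DMSO+VIP point for Hgf and Rspo3 and above for Ngfr, Colec10, Colec11 and Ecm1, and the points overlap in the other 4 panels.

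The DNA just before the counted start of the genes that passed the test is shown here so that the members that rose can be set beside the one that fell. The list of RefSeq starts used (GRCm38.p6, the assembly also called mm10) held 7 of the 10 genes. Rspo3, Colec10 and Cygb were counted over RefSeq transcripts but had no entry in that list. For Hgf, with 2 listed starts, the one at the start of the counted transcript was used. The 250 bases before the start are written 5′ to 3′ on the strand of the gene, with matches to TATAAA in capitals. They lie at chr5:16553245-16553494 (plus strand) for Hgf, chr12:28623331-28623580 (minus) for Colec11, chr11:95587699-95587948 (minus) for Ngfr and chr3:95739570-95739819 (minus) for Ecm1.
Hgf: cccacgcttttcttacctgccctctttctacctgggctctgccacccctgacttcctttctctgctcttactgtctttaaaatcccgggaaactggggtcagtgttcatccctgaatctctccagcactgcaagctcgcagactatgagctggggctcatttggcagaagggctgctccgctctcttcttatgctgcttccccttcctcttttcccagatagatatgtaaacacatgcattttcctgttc
Colec11: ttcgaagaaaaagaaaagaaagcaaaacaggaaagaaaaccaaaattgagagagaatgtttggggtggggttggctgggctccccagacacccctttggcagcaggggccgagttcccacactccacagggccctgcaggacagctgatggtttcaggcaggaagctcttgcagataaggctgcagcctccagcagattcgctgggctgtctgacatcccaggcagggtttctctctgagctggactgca
Ngfr: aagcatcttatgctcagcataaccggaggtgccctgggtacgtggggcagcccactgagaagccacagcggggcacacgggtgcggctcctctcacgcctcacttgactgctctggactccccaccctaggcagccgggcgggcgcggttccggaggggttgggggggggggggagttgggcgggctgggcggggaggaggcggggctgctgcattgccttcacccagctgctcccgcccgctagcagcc
Ecm1: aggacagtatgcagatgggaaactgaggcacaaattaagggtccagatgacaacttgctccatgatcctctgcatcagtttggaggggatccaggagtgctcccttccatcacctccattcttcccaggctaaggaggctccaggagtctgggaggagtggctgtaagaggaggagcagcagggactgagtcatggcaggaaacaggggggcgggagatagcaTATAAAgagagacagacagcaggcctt

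These 4 stretches differ in base composition. The G+C content was 50.8% for Hgf, 54.4% for Colec11, 54.0% for Ecm1 and 70.4% for Ngfr, against a median of 52.4% over the same stretch of 32851 RefSeq starts. CpG was scarce before Ecm1 and Colec11, with ratios of observed to expected CpG of 0.0575 and 0.164, and less so before Hgf and Ngfr, with 0.271 and 0.523; the median over all starts was 0.373. Reln, whose RNA did not pass the test, had 80.0% G+C and a ratio of 0.987. A search on both strands for the cAMP response element TGACGTCA, its short form TGACG (which the full element contains), the nuclear receptor core AGGTCA and the inverted repeat of that core with 1 base between (which contains the core), the form FXR is known to bind, found none of them in the 7 stretches. These letters occur before 1.55%, 17.8%, 14.0% and 0.00609% of all starts. TATAAA was found before Ecm1, with its first base 27 bases before the start, and before Adamtsl2, 30 bases before, and in 12.4% of all starts. A match or its absence in so short a window is a description of the letters only.

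Deposited counts summed to 2.84e+06 to 4.57e+06 in the DMSO+VIP libraries and 4.53e+06 to 9.95e+06 in the OCA+VIP libraries, the deepest being OCA+VIP library 2. Because low values were spaced by about 6, the floor for a gene at 0 was set to 3 such steps, or 18 counts per group, which is 1.61 CPM in DMSO+VIP and 0.887 CPM in OCA+VIP. All 12 stellate cell markers had counts, and their sum was 632 to 774 CPM in the vehicle group and 720 to 844 CPM with OCA+VIP, led over both groups by Nes and Dcn. Of the 11 tested of these 12, 2 rose, 1 fell and 8 did not pass. Dcn rose from 111 ± 11.1 to 220 ± 38.5 CPM, and Des, which was above Dcn in the vehicle group, fell by 0.52 on the log2 scale with an SE of 0.13 (adjusted p = 0.000107 and 0.0132 by edgeR). The Des call was lost without DMSO+VIP library 1 or 3 or OCA+VIP library 3, with edgeR adjusted p from 0.0574 to 0.105. Des, Lrat and Gfap are named after their values were seen; Lrat and Gfap, which define quiescent cells, were low at 3.91 ± 3.83 and 1.14 ± 1.07 CPM in the vehicle group and 8.16 ± 4.48 and 0.816 ± 0.776 CPM in the OCA group (SD, n = 3). The 8 myofibroblast markers, led by Tagln and Postn, summed to 936 to 1003 and 494 to 622 CPM. The 17 hepatocyte markers, led by Alb and Ass1, summed to 185 to 204 and 314 to 490 CPM. Alb alone had 39.5 ± 2.35 and 146 ± 35.7 CPM (SD, n = 3). Of the 13 tested of these 17, 9 rose, 1 (Ass1) fell and 3 did not pass, and Cps1 and Tat were at 0. Ttr, Serpina1b and Apoh, among those that rose, are named after their values were seen. Their log2 fold changes were 8.29 or more whichever library was left out, so their vehicle values were near 0. At least these passed the filter through the OCA+VIP group alone, so their calls are conditioned on high values there. The other marker lists were low in both groups: portal fibroblast and mesothelium at 36.6 to 63.7 and 26.5 to 32.6 CPM (Thy1, Msln, Upk3b and Upk1b at 0), macrophage at 15.3 to 47.3 and 31.0 to 44.2 CPM (Vsig4 and Timd4 at 0), endothelium at 4.15 to 8.63 and 6.73 to 17.9 CPM (Lyve1 and Fcgr2b at 0), lymphocyte at 0 to 1.31 and 5.88 to 10.9 CPM (Ms4a1, Cd3e, Nkg7 and Ptprc at 0), and cholangiocyte at 1.61 to 5.47 and 5.29 to 8.44 CPM (Krt7 and Cftr at 0).

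Hgf (chromosome 5, 16553495 to 16619439, plus strand, counted over 2817 exon bases of 1 RefSeq transcript) encodes hepatocyte growth factor. It had 40.8, 45.3 and 56.9 CPM in DMSO+VIP libraries 1 to 3 and 13.0, 12.0 and 8.27 CPM in OCA+VIP libraries 1 to 3. The lowest vehicle library was thus well above the highest OCA library. The group means were 47.7 ± 8.34 and 11.1 ± 2.50 CPM (SD, n = 3), and the log2 fold change was -2.11 with an SE of 0.26 (adjusted p = 9.55e-06 by edgeR). Gm43489 shares 6.74% of the exon bases of Hgf on the same strand. Hgf was the 41st of the 11286 tested genes in order of fitted fall. In these bulk samples, fewer cells of a type and less RNA per cell cannot be told apart.

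Partners of HGF were measured where they could be. Met, the HGF receptor of hepatocytes, had 6 counts over the DMSO+VIP group and 17.5 over the OCA+VIP group, under the floor in both. Hgfac, a protease that activates pro-HGF, had 6 and 33 counts, the first under the floor. Of 11 genes of the list for HGF activation and reception, 7 were tested and 0 passed by edgeR, DESeq2 or limma-voom, with 1 at an unadjusted edgeR p under 0.05; the median log2 fold change was 0.33.

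Rspo3 (chromosome 10, 29453107 to 29535867, minus strand) encodes R-spondin 3. It had 28.7, 27.6 and 25.0 CPM in DMSO+VIP libraries 1 to 3 and 20.7, 18.9 and 18.4 CPM in OCA+VIP libraries 1 to 3. The groups did not overlap, and their coefficients of variation were 7.00% and 6.28%. The vehicle values rest on 131.5, 78.5 and 93.5 counts, with low values spaced by about 6. This closeness is therefore no measure of precision. The difference did not pass the test across all genes, with a log2 fold change of -0.51 (95% interval -1.04 to 0.03, adjusted p = 0.22 by edgeR). Exons of Gm48159 on the opposite strand cover 13.1% of the exon bases of Rspo3; whether reads were counted by strand is not given in the sources used here.

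Among the R-spondin and Wnt genes, Rspo3 was the one R-spondin with counts: Rspo1, Rspo2 and Rspo4 were at 0 in all 6 libraries, which allows up to 1.61 CPM in the vehicle group and 0.887 CPM with OCA+VIP. Lrp6, a Wnt co-receptor, was the 1 of 16 tested genes of that list that passed. It had 171, 153 and 135 CPM in DMSO+VIP libraries and 213, 235 and 253 CPM in OCA+VIP libraries, so that the groups lay apart, and its log2 fold change was 0.59 with an SE of 0.13 (adjusted p = 0.00287 by edgeR). The R-spondin receptor gene Lgr4 had 7.34 ± 1.06 and 13.5 ± 3.83 CPM (log2 fold change 0.86, 95% interval -0.01 to 1.74, edgeR adjusted p = 0.20), and the ligase gene Znrf3 had 8.73 ± 4.02 and 16.6 ± 1.17 CPM (log2 fold change 0.93, adjusted p = 0.13 by edgeR). For both, the OCA+VIP libraries lay above the DMSO+VIP libraries without a call. Rnf43 had 12 and 6 counts over the groups, and Lgr5 had no counts in the vehicle group and 0.345 ± 0.597 CPM in the OCA group, all under the floor. The median log2 fold change of the 16 was -0.01.

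Angptl6 (chromosome 9, 20873809 to 20879710, minus strand) encodes an angiopoietin-like growth factor. It had 13.2, 21.0 and 8.04 CPM in DMSO+VIP libraries and 9.92, 9.50 and 12.0 CPM in OCA+VIP libraries. The vehicle libraries spread over the whole range of the OCA libraries, and the difference did not pass (log2 fold change -0.43, 95% interval -1.29 to 0.42, edgeR adjusted p = 0.55). The gene A230050P20Rik covers 16.8% of the exon bases of Angptl6 on the opposite strand. Relatives of Angptl6 did pass: Angptl2, a secreted inflammatory member of the family, had 144, 123 and 131 CPM with DMSO+VIP against 20.1, 35.2 and 35.1 CPM with OCA+VIP (log2 fold change -2.14 with an SE of 0.18, adjusted p = 6.27e-08 by edgeR). Angptl4, an inhibitor of lipoprotein lipase, had 3.94, 7.40 and 3.21 CPM against 20.2, 13.2 and 13.4 CPM. Its log2 fold change was 1.70 with an SE of 0.46 (adjusted p = 0.0183 by edgeR). This call was lost without DMSO+VIP library 1 or 3 and without OCA+VIP library 1 or 3, with edgeR adjusted p from 0.0524 to 0.129. Among the 9 angiopoietin-like genes with an entry, 3 were tested, with a median log2 fold change of 0.73.

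Reln (chromosome 5, 21884454 to 22344705, minus strand, 11632 exon bases) encodes reelin and was the gene of highest CPM in the set with DMSO+VIP. It had 375, 257 and 177 CPM in DMSO+VIP libraries 1 to 3 and 197, 308 and 219 CPM in OCA+VIP libraries 1 to 3. The groups overlapped and the highest library was of vehicle. The log2 fold change was -0.18 (95% interval -0.57 to 0.20, adjusted p = 0.59 by edgeR), and it was 0.13 without DMSO+VIP library 1. The reelin receptor gene Lrp8 had 24.4 ± 8.47 and 33.6 ± 11.3 CPM (edgeR adjusted p = 0.35), while the other receptor gene Vldlr and the adaptor gene Dab1 were at 0 in all 6 libraries. Of 8 tested genes of the reelin list, 1 rose and 1 fell, and the median log2 fold change was -0.04. Fyn, a Src family kinase that reelin activates in neurons, fell from 93.9, 109 and 81.2 CPM to 39.3, 51.1 and 31.7 CPM (log2 fold change -1.23 with an SE of 0.18, adjusted p = 8.13e-05 by edgeR). Dab2, an endocytic adaptor, rose from 18.4 ± 5.02 to 34.6 ± 3.60 CPM (log2 fold change 0.89, adjusted p = 0.0244 by edgeR). The Dab2 call was lost without DMSO+VIP library 1 or 2 and without OCA+VIP library 1, 2 or 3, with edgeR adjusted p from 0.0544 to 0.0978.

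Ngfr (chromosome 11, 95568821 to 95587698, minus strand) encodes p75NTR, the surface receptor of the set. It had 17.7, 6.69 and 14.7 CPM in DMSO+VIP libraries and 35.6, 24.9 and 28.4 CPM in OCA+VIP libraries. All OCA libraries lay above the vehicle libraries, of which library 2 was the lowest. The means were 13.0 ± 5.70 and 29.6 ± 5.47 CPM (SD, n = 3), with a log2 fold change of 1.15 with an SE of 0.32 (adjusted p = 0.0210 by edgeR). The call was lost without DMSO+VIP library 2 (log2 fold change 0.86, adjusted p = 0.0788 by edgeR), OCA+VIP library 1 (0.96, adjusted p = 0.129) or OCA+VIP library 3 (1.18, adjusted p = 0.0705), and with limma-voom (1.04, adjusted p = 0.0523).

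Of 7 tested genes of the neurotrophin list, 2 fell and 5 did not pass, with 0 to 1 falling when any 1 library was left out. Bex3, an adaptor of the p75NTR death domain, fell from 63.8 ± 18.2 to 36.8 ± 5.59 CPM (log2 fold change -0.81, adjusted p = 0.0121 by edgeR). Leaving out the first vehicle library took this edgeR adjusted p to 0.111, and leaving out the first or the third OCA library took it to 0.0580 or 0.0741. Bdnf had 15.4 ± 3.08 and 14.2 ± 7.43 CPM, and the p75NTR co-receptor gene Sort1 2.90 ± 2.82 and 4.26 ± 2.35 CPM, with edgeR adjusted p of 0.88 and 0.77. Ntrk2, the BDNF receptor gene, had 6 counts over the DMSO+VIP group and 0 over the OCA+VIP group, both under the floor. The median log2 fold change of the 7 was -0.12.

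Colec11 (chromosome 12, 28594172 to 28623330, minus strand, 1415 exon bases) encodes collectin CL-K1. It had 5.90, 6.69 and 8.30 CPM in DMSO+VIP libraries and 38.0, 21.7 and 34.7 CPM in OCA+VIP libraries. Even the lowest OCA library, the deepest one, was above the highest vehicle library. The means were 6.97 ± 1.22 and 31.5 ± 8.66 CPM (SD, n = 3), a log2 fold change of 2.17 with an SE of 0.33 (adjusted p = 0.000133 by edgeR), and Colec11 was 84th in order of fitted rise among all tested genes. Its log2 fold change stayed between 1.98 and 2.41 when any 1 library was left out, with the call kept each time.

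Colec10 (chromosome 15, 54410774 to 54466358, plus strand) encodes collectin CL-L1, which forms mixed complexes with CL-K1. It had 6, 0 and 6 deposited counts in DMSO+VIP libraries 1 to 3 and 55, 82.5 and 24 in OCA+VIP libraries 1 to 3, or 1.31, 0 and 1.61 CPM against 12.1, 8.29 and 4.13 CPM. The vehicle group is thus under the floor of 18 counts, with a sum that corresponds to 2 steps of 6 against 27 steps. The ratio of the pooled CPM was 7.39, with an exact 95% interval of 1.86 to 64.4 from these steps, which covers counting error only. It passed the filter on low counts through the OCA+VIP group alone, so the test is conditioned on high values there and the call is given as a description. The fitted log2 fold change was 2.95 with an SE of 0.85 (adjusted p = 0.0258 by edgeR). This call was lost without DMSO+VIP library 1 or 2 (edgeR adjusted p = 0.0674 and 0.0585) or OCA+VIP library 1 or 2 (0.182 and 0.0684), and with limma-voom (0.142).

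Liver collectins and complement proteins are also products of hepatocytes. The sum of hepatocyte markers was higher in the same libraries, and the part of this in the collectin results was not tested. Of the 13 tested hepatocyte markers, 9 rose, 1 (Ass1) fell and 3 did not pass, with a median log2 fold change of 2.56. Some of these passed the filter through the OCA+VIP group alone, so that median is conditioned on high values there. Ass1 had log2 fold changes of -0.92 to -0.66 when any 1 library was left out. The hepatocyte marker sum was highest at 490 CPM and lowest at 314 CPM in the OCA+VIP group. Of 10 tested genes of the list of collectins and the lectin complement pathway, 2 rose and 1 fell, and the median log2 fold change was 0.67; 3 rose when DMSO+VIP library 3 was left out. Masp1, which encodes a protease that CL-K1 and CL-L1 carry, fell from 273, 232 and 270 CPM to 128, 177 and 162 CPM (log2 fold change -0.75 with an SE of 0.13, adjusted p = 0.000343 by edgeR). So Masp1 was called in the direction opposite to Colec11. Masp2, named after its values were seen, had 12.9 ± 5.07 and 12.9 ± 1.06 CPM and did not pass (edgeR adjusted p = 0.99). Tardbp covers 54.9% of the exon bases of Masp2 on the opposite strand. Fcna, a ficolin that also binds MASP proteases, rose from 38.4, 37.9 and 51.6 CPM to 111, 80.9 and 108 CPM (log2 fold change 1.21 with an SE of 0.18, adjusted p = 0.000108 by edgeR), and Fcnaos covers 6.55% of its exon bases on the opposite strand. C3, the central complement component and an abundant hepatocyte product, rose from 4.14 ± 1.05 to 23.9 ± 8.67 CPM (log2 fold change 2.53, adjusted p = 0.000262 by edgeR). Colec12, a membrane-bound scavenger collectin, had 4.50 ± 2.24 and 7.19 ± 1.57 CPM, which overlapped (edgeR adjusted p = 0.57).

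**Figure D2:**
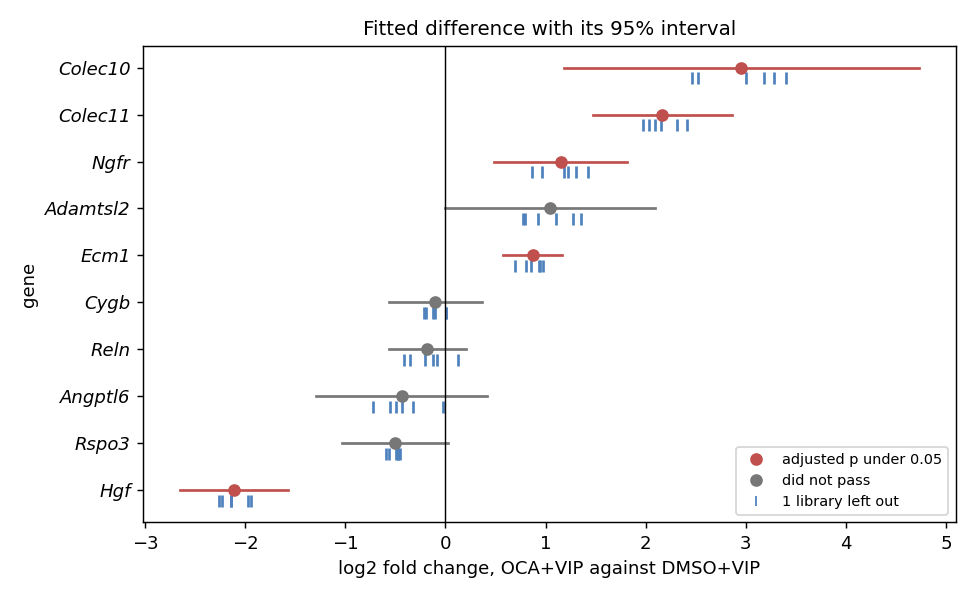
Fitted log2 fold change of OCA+VIP against DMSO+VIP (x axis) for each of the 10 genes (y axis), with the 95% interval as a line; red genes had an edgeR adjusted p under 0.05 and grey genes did not, and blue ticks are the fits with 1 library left out. The ticks of Reln run from -0.41 to 0.13 and those of Cygb from -0.21 to 0.0082. Those of every other gene, called or not, stay on 1 side of 0, and the interval of Colec10 is the widest.

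Ecm1 (chromosome 3, 95734147 to 95739569, minus strand) encodes extracellular matrix protein 1. It had 151, 120 and 133 CPM in DMSO+VIP libraries and 294, 224 and 228 CPM in OCA+VIP libraries. Each OCA library was above each vehicle library, with OCA+VIP library 1 the highest. The means were 135 ± 15.5 and 249 ± 39.4 CPM (SD, n = 3), and the log2 fold change was 0.87 with an SE of 0.14 (adjusted p = 0.000250 by edgeR), which stayed a call without any 1 library. Of 6 tested genes of the list of ECM1 partners, 1 fell and 5 did not pass, at a median of 0.02 on the log2 scale; 1 other gene rose when OCA+VIP library 2 was left out. The one that fell was Hspg2, encoding the basement membrane proteoglycan perlecan, at 53.2, 44.0 and 35.1 CPM in the vehicle group and 18.9, 21.7 and 16.5 CPM with OCA+VIP (log2 fold change -1.23 with an SE of 0.23, adjusted p = 0.00120 by edgeR).

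Adamtsl2 (chromosome 2, 27079381 to 27108613, plus strand) encodes a secreted ADAMTS-like glycoprotein without protease activity. It had 3.72, 6.52 and 7.63 CPM in DMSO+VIP libraries and 15.5, 6.79 and 14.0 CPM in OCA+VIP libraries. OCA+VIP library 2 lay within the vehicle range and libraries 1 and 3 lay above it. The log2 fold change of 1.04 did not pass (95% interval -0.01 to 2.09, adjusted p = 0.20 by edgeR). Its binding partner fibrillin-1, encoded by Fbn1, fell from 153, 113 and 105 CPM to 41.0, 71.4 and 40.1 CPM (log2 fold change -1.29 with an SE of 0.19, adjusted p = 7.30e-05 by edgeR); Gm9913 covers 20.1% of the exon bases of Fbn1 on the opposite strand. Adamtsl5, another family member, fell from 80.7, 55.5 and 49.2 CPM to 16.2, 39.1 and 29.6 CPM (log2 fold change -1.14 with an SE of 0.24, adjusted p = 0.00331 by edgeR), a call lost without DMSO+VIP library 1 (adjusted p = 0.0544). These were the calls among 8 tested genes of the list of ADAMTS-like and microfibril genes, whose median log2 fold change was -0.30. The myofibroblast marker sum was lower in the same OCA+VIP libraries, and its part in these matrix results was not tested.

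Cygb (chromosome 11, 116645595 to 116654313, minus strand) had 32.8, 37.9 and 29.2 CPM in DMSO+VIP libraries and 25.3, 33.1 and 35.9 CPM in OCA+VIP libraries. The groups overlapped throughout. Prcd covers 8.62% of the exon bases of Cygb on the opposite strand. The log2 fold change was -0.10 (95% interval -0.57 to 0.36, adjusted p = 0.83 by edgeR). Of the proteins that reduce cytoglobin in cells, Cyb5r3, cytochrome b5 reductase 3, had 170 ± 13.4 and 164 ± 8.35 CPM (edgeR adjusted p = 0.77). Cyb5a, cytochrome b5, rose from 40.0 ± 6.45 to 60.6 ± 2.11 CPM (log2 fold change 0.58, adjusted p = 0.0412 by edgeR), a call lost without any 1 of the 6 libraries (adjusted p from 0.0544 to 0.145). Cyb5r1 fell from 284, 266 and 258 CPM to 144, 156 and 171 CPM (log2 fold change -0.80 with an SE of 0.12, adjusted p = 0.000100 by edgeR). The median log2 fold change of the 4 tested genes of that list was 0.05. The haemoglobin genes Hba-a1, Hba-a2, Hbb-bs and Hbb-bt and the myoglobin gene Mb were at 0 in all libraries.

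**Figure D3:**
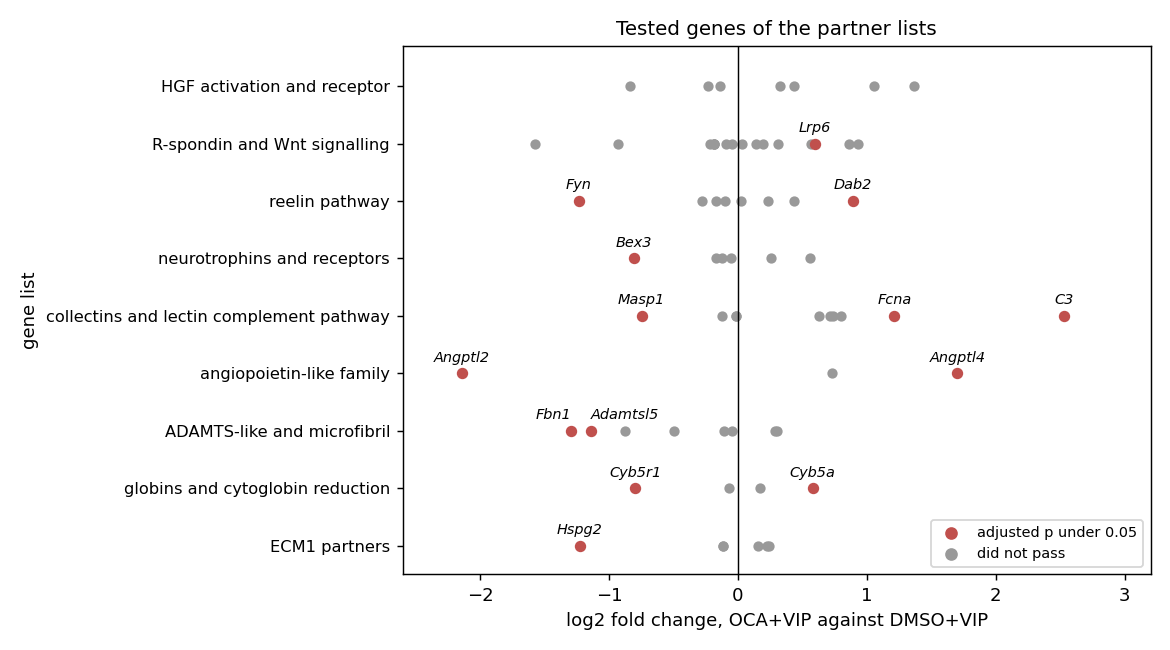
Log2 fold change of OCA+VIP against DMSO+VIP (x axis) for tested genes of the 9 partner lists (y axis), with genes of edgeR adjusted p under 0.05 in red and named, and the others in grey. Red points lie on both sides of 0, from -2.14 for Angptl2 to 2.53 for C3, and the list around HGF has none.

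Over the 9 partner lists together, 69 of 129 genes in the table were tested, 6 rose (8.70%), 9 fell (13.0%) and 54 did not pass, against 5.72% and 6.04% of all tested genes. The lists were chosen with earlier results of these data known, so these shares are no test of the lists. The median log2 fold change of the 69 was -0.02. The number that rose dropped to 3 when DMSO+VIP library 1 was left out, and likewise for OCA+VIP libraries 1 and 3.

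Levels of different genes were compared per length, as RPKM, the CPM of a gene divided by its exon length in kilobases. Ecm1 was first in both groups, at 71.6 ± 8.21 RPKM with DMSO+VIP and 132 ± 20.9 RPKM with OCA+VIP (SD, n = 3), and its 3 values lay above those of the next gene in each group. With DMSO+VIP the order went on with Reln (23.2 ± 8.56 RPKM), Hgf (16.9 ± 2.96), Cygb (14.3 ± 1.87), Rspo3 (11.4 ± 0.796), Angptl6 (9.04 ± 4.18), Colec11 (4.92 ± 0.865), Ngfr (3.84 ± 1.68), Adamtsl2 (1.85 ± 0.627) and Colec10 (0.212 ± 0.187). In that order the ranges of neighbours were apart for Ecm1 and Reln, Cygb and Rspo3, and Adamtsl2 and Colec10, and the other neighbours overlapped.

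With OCA+VIP the second place was held by Colec11 at 22.2 ± 6.12 RPKM, which overlapped with Reln at 20.8 ± 5.06 RPKM. Cygb (13.5 ± 2.38), Ngfr (8.72 ± 1.61), Rspo3 (8.10 ± 0.509), Angptl6 (6.73 ± 0.850), Hgf (3.94 ± 0.888), Adamtsl2 (3.76 ± 1.45) and Colec10 (1.79 ± 0.873) followed in RPKM. The pairs of neighbours Colec11 and Reln, Ngfr and Rspo3, Hgf and Adamtsl2, and Adamtsl2 and Colec10 overlapped, and the others were apart. Hgf thus went from the third to the eighth place and Colec11 from the seventh to the second.

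**Figure D4:**
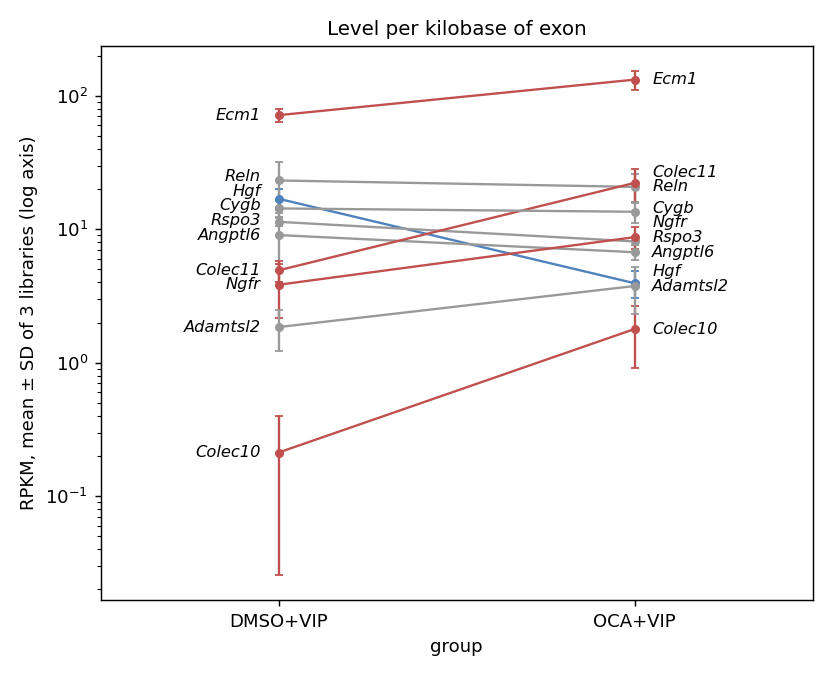
Mean level per kilobase of exon (RPKM, y axis, log scale) of the 10 genes in DMSO+VIP and OCA+VIP (x axis), with the SD over 3 libraries as error bars; red lines rose, the blue line fell and grey lines did not pass the test. The line of Hgf crosses that of Colec11, from 16.9 to 3.94 RPKM against 4.92 to 22.2 RPKM.

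Ratios of members within a library need no scaling between libraries. The RPKM of Hgf divided by that of Colec11 was 3.47, 3.40 and 3.44 in DMSO+VIP libraries 1 to 3 and 0.172, 0.279 and 0.120 in OCA+VIP libraries 1 to 3. Vehicle libraries were alike in this ratio, but it rests there on 27, 19 and 31 counts of Colec11, a few steps of about 6 each. The likeness is therefore no measure of precision. Every OCA library was below 1. The ratio is made of the values behind the calls of Hgf and Colec11 and is no further test. Ecm1 divided by Hgf was 5.54, 3.97 and 3.50 in DMSO+VIP libraries and 33.8, 27.9 and 41.2 in OCA+VIP libraries, again without overlap. As a sum, the 10 genes took 554 ± 106 CPM in the vehicle group and 644 ± 36.2 CPM with OCA+VIP. Reln made up 38.4% to 56.0% of that sum in the vehicle libraries and 29.8% to 46.2% in the OCA libraries, and Ecm1 22.5% to 28.9% and 33.6% to 44.4%.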

How the data were processed

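Polyadenylated RNA of 6 libraries was sequenced after NEBNext Ultra library preparation, per the labels' protocols. The authors deposited 1 table of expected counts over exons, made per gene without adjustment for library size and in steps of 0.5, for 24940 genes with 1 RefSeq transcript each; its other columns, per the file headers, give exon length and genomic copies (1 for all 10 genes described). The submitters' processing notes name mm10, STAR, HOMER and DESeq2, without role or version. Strand use and duplicate removal are not stated. Columns took their group from their name, and column numbers name libraries here without a match to the title letters.

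Counts were rounded and tested with edgeR 4.0.16 (R 4.3.3, limma 3.58.1): TMM, filterByExpr (minimum count 10, total 15), a two-sided quasi-likelihood F test and Benjamini-Hochberg adjustment over 11286 genes. SEs are the size of the log2 fold change over the square root of F, and 95% intervals use the moderated degrees of freedom. CPM and RPKM use column totals without TMM. The steps were tested on simulated data. The 10 genes and the lists were chosen with earlier results of these data known. Named genes are the 10, their fixed direct partners, up to 4 called genes of at least 1 CPM per partner list, and in the marker lists the 2 leading genes and those at 0; other genes at 0 were named after their values were seen. Ngfrap1, Angptl5, Adamtsl6 and B3galtl are not table symbols. Alternatives were 3 other scalings (library size, RLE, upper quartile), other filters, DESeq2 1.42.0, limma-voom, a replicate block, counts divided by 6, thresholds of 0.01 and 0.1, leaving out each library and, chosen after seeing the data, DESeq2 on all genes. Exon overlaps are from GENCODE (GRCm38). Figures used matplotlib 3.10.9. The result of 1 gene is neither reported nor drawn here, though the counts over lists include it.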

Additional observations from a re-analysis of the deposited data

How the results depend on the processing

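Hgf, Ecm1 and Colec11 kept direction and call under all 18 alternatives, with log2 fold changes of -2.26 to -1.94, 0.69 to 0.98 and 1.98 to 2.41. Ngfr kept its call in 13 of 18 and Colec10 in 10 of 17, both with 1 direction throughout. The thresholds of 0.01 and 0.1, counted among these, reuse the main fit. Direction could not change there, and no call could be lost at 0.1. Rspo3, Reln, Angptl6, Adamtsl2 and Cygb passed in none of those run; leaving out 1 library gave log2 fold changes of -0.41 to 0.13 for Reln and -0.21 to 0.0082 for Cygb. Colec10, Angptl6 and Adamtsl2 were not tested once counts were divided by 6, since too few counts remained. Of the 10 genes, 2 rose with limma-voom and 2 at a threshold of 0.01, and 2 to 4 when 1 library was left out; 1 fell in each. At 0.01, 303 genes of the table rose and 345 fell, with 3 higher genes in the partner lists. DESeq2 on all genes called 1113 higher and 1091 lower. Without 1 library, 310 to 745 genes rose and 395 to 733 fell, and 3 to 5 partner genes rose and 6 to 8 fell. The cause of these differences was not tested.

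Same-numbered libraries did not deviate together (correlations of -0.04, -0.05 and 0.03 over genes; 2 of 6 libraries correlated best with their own number), so the numbers were not taken to pair the samples. With a replicate block, 549 genes rose and 569 fell; of the 10 genes, 3 rose and 1 fell, and Colec10 had an edgeR adjusted p of 0.0658. In at least 1 group, Colec10, Met, Hgfac, Rnf43, Lgr5, Ntrk2 and Tek had fewer than 18 counts, so a change in them is limited by depth.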
